A study of Mus musculus with 4 samples.

Results

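The genes described here are 7 mouse genes of the MHC class II pathway, H2-Aa, H2-Ab1, H2-Eb1, H2-DMa, H2-DMb1, Cd74 and Ciita, taken by name. They were chosen with earlier results of these data known. Every non-control probe whose RefSeq transcript maps to one of these symbols was used, which gave 8 of 55681 distinct probes, 2 of them for H2-Ab1 and 1 for each other gene. The array names 20887 genes in all. RNA came from bone marrow LSK cells, which lack lineage markers, carry c-Kit and Sca-1, and include the blood stem cells. The study set heterozygous Sf3b1 mice against wild type, Sf3b1 being a splicing factor gene, because embryos lacking both copies die before they implant. Transplantation was added to separate effects of the cells from effects of their marrow surroundings.

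There were 4 groups, all on the C57BL/6 strain. Sf3b1+/- transplanted and wild-type transplanted LSK cells were CD45.2+ donor cells recovered 9 months after total marrow of either genotype had been placed in lethally irradiated CD45.1+ hosts. Sf3b1+/- native and wild-type native LSK cells came straight from mice aged 20 weeks. The labels count 5 recipients for the transplanted and 4 mice for the native collection, and the sources do not tie a number of mice to an array. Each group was measured on 1 single-colour array from 20 ng of RNA. A difference between any 2 arrays therefore has no replicate check and carries no p-value. Irradiation of the host, the months since transplantation, the age of the cells and array position all change together with transplantation, and their effects cannot be told apart.

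MHC class II molecules are paired alpha and beta chains that show peptides from the endosomes to helper T cells. H2-Aa and H2-Ab1 encode the chains of I-A, and H2-Eb1 encodes the beta chain of I-E, whose alpha chain C57BL/6 mice do not make. Cd74 encodes the invariant chain, which fills the groove of a new class II molecule and guides it to the endosome. H2-DMa and H2-DMb1 encode the dimer that then exchanges the last piece of the invariant chain for a peptide, and Ciita encodes the transactivator that class II promoters need. Dendritic cells, macrophages and B cells are the usual class II producers, and some blood progenitors also carry the molecules.

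On the arrays 47.7% to 51.5% of spots were well above background by the scanner software's call, no spot was saturated, and the 75th percentile of detected probes lay between 1650 and 2686 signal units before scaling. Signals are given as scaled signal, where 1 is that percentile on the same array, and differences are on the log2 scale of it. The genes compared were the 13045 that 2 or more arrays read well above background. Of the 7 members 6 were compared, and each of those was well above background on all 4 arrays. The scanner software's own error model gives about 0.20 for any log2 difference of these 6 genes, and 399 probes spotted 10 times on each array had a pooled SD of 0.10 to 0.12 between spots. Both measure the array alone, not the spread between mice. The stem and progenitor markers Kit, Ly6a (which encodes Sca-1) and Cd34 were well above background on all 4 arrays, with scaled signals of 2.51 to 3.68, 0.918 to 1.82 and 20.7 to 34.9.

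The promoters of the class II genes share an X box and a Y box, bound by the RFX and NF-Y complexes on which Ciita is assembled. Upstream sequence of 4 members was found in RefSeq (GRCm38.p6), and 3 of them held a short X core (TNGNAAC) followed by a Y core (TGATTGG) with 25 to 40 bases from start to start. These cores and this spacing were chosen after the promoters had been read. The windows are shown 5′ to 3′ on each gene's own strand because they belong to the members whose values are compared next, with both cores in capitals. They lie at chr17:34287854-34287913 on the minus strand for H2-Aa, chr17:34305766-34305825 on the plus strand for H2-Eb1 and chr17:34153088-34153147 on the plus strand for H2-DMb1.
H2-Aa: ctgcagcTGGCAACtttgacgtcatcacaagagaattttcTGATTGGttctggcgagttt
H2-Eb1: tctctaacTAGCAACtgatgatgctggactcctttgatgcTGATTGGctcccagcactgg
H2-DMb1: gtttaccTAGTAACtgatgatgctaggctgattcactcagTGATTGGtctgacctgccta

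The cores were 33, 32 and 33 bases apart in H2-Aa, H2-Eb1 and H2-DMb1. Among 32851 RefSeq promoters, read over 250 bases before the start on both strands, the Y core was found in 7.23%, the X core in 30.7% and the pair at this spacing in 28 promoters, or 0.0852%. Neither of the 2 H2-DMa promoters in the table held either core on the gene's strand. Of the other class II genes, which are no members, H2-Ob held the pair 30 bases apart, while H2-Oa, H2-DMb2 and H2-Eb2 did not hold it. No upstream sequence was found for H2-Ab1, Cd74 or Ciita.

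The comparison of transplanted with native cells asks how class II transcripts stand in LSK cells that have rebuilt the marrow of a host. The genes of the class II chains and of the invariant chain were about 2-fold to 4-fold higher in transplanted than in native cells of both genotypes, whereas the genes of the peptide exchange dimer differed little. H2-Eb1, the I-E beta chain, had a scaled signal of 8.59 in Sf3b1+/- and 10.1 in wild-type transplanted cells, against 2.43 in Sf3b1+/- and 2.64 in wild-type native cells. Both transplanted arrays were higher than both native arrays, by 3.54-fold in Sf3b1+/- and 3.83-fold in wild-type cells (log2 1.82 and 1.94). How many of all compared genes are ordered in this way was not counted. H2-Aa, the I-A alpha chain, had 0.915 in Sf3b1+/- and 0.784 in wild-type transplanted cells, against 0.229 and 0.236 in Sf3b1+/- and wild-type native cells. Its difference was 3.99-fold in Sf3b1+/- and 3.33-fold in wild-type cells (log2 1.997 and 1.73). These are the 2 members furthest apart. Their promoters held the pair of cores, and so did that of H2-DMb1, which differed by 1.29-fold in Sf3b1+/- and 1.25-fold in wild-type cells. A link of the cores to the differences was not tested. In wild-type cells 74 and 99 of the 13045 compared genes had a larger difference than H2-Eb1 and H2-Aa, and in Sf3b1+/- cells 184 and 142 did.

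H2-Ab1, which encodes the partner chain of H2-Aa, had a scaled signal of 14.5 in Sf3b1+/- and 17.5 in wild-type transplanted cells, against 7.52 in Sf3b1+/- and 8.88 in wild-type native cells. The differences were 1.93-fold in Sf3b1+/- and 1.97-fold in wild-type cells. Its other probe read 13.04 and 15.7 in Sf3b1+/- and wild-type transplanted cells, against 6.84 and 7.74 in Sf3b1+/- and wild-type native cells. That is 1.91-fold and 2.03-fold higher, so the 2 probes of H2-Ab1 differed from each other by less than the scanner error. The 2 chains of I-A thus differed by unequal amounts, about 1.9-fold to 2.0-fold for the beta chain and 3.3-fold to 4.0-fold for the alpha chain.

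Cd74, the invariant chain, had a scaled signal of 5.12 in Sf3b1+/- and 4.55 in wild-type transplanted cells, against 1.81 in Sf3b1+/- and 2.16 in wild-type native cells. Both transplanted arrays were again above both native ones, by 2.83-fold in Sf3b1+/- and 2.11-fold in wild-type cells (log2 1.499 and 1.08).

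The DM genes stood under 1.5-fold apart, except with spike-in scaling. There H2-DMa was 1.22 and 0.49 and H2-DMb1 1.19 and 0.76 higher on the log2 scale in Sf3b1+/- and wild-type transplanted cells. Of these only the 0.49 of H2-DMa in wild-type cells stayed under 1.5-fold. H2-DMb1 had a scaled signal of 2.30 in Sf3b1+/- and 2.46 in wild-type transplanted cells, against 1.79 and 1.98 in Sf3b1+/- and wild-type native cells, a difference of 1.29-fold and 1.25-fold. H2-DMa had 2.28 in Sf3b1+/- transplanted cells, and 1.78 in wild-type transplanted cells, against 1.73 in native cells of both genotypes. Only the Sf3b1+/- transplanted array stood above the other 3 for H2-DMa, by a log2 difference of 0.39 from Sf3b1+/- native cells. In wild-type cells the H2-DMa difference was 0.04, inside the scanner error, and its sign turned under 2 other scalings. The near-identical copy H2-DMb2 was not well above background on any array, and how far each probe reads the other copy was not tested.

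Ciita, the transactivator, was not well above background on any of the 4 arrays. Its probe, designed to the transcript NM_001243760, read 15.04 units in Sf3b1+/- and 10.4 in wild-type transplanted cells, against 19.3 and 19.9 units in Sf3b1+/- and wild-type native cells, on a local background of 32 to 34 units. No fold is given for it. The gene has several transcripts from different start sites, and 1 probe need not read all of them.

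**Figure D1:**
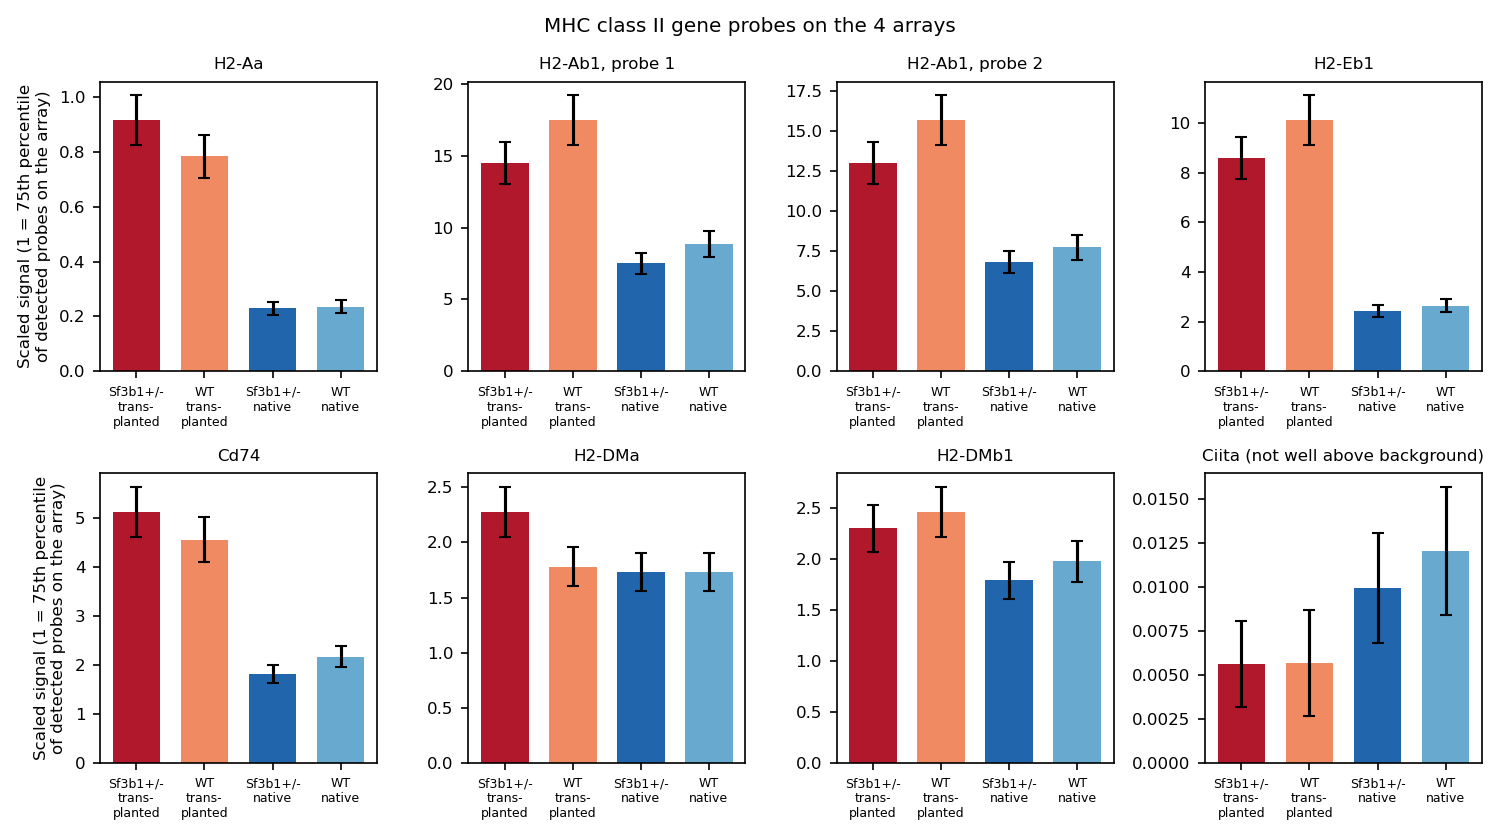
Scaled signal (y axis, 1 is the 75th percentile of detected probes on the array) of the 8 probes on the 4 arrays, left to right Sf3b1+/- transplanted, wild-type transplanted, Sf3b1+/- native and wild-type native LSK cells. Each bar is 1 array and the error bar is the scanner software's error of that spot, not a spread between mice. The probes of H2-Aa, H2-Ab1, H2-Eb1 and Cd74 stand higher on both transplanted arrays, for example H2-Eb1 at 8.59 and 10.1 against 2.43 and 2.64, while Ciita is not well above background on any array.

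The member median was 1.22 in Sf3b1+/- and 1.03 in wild-type cells, against 0.01 and 0.00 for all compared genes. At least 1.5-fold higher in transplanted cells were 4 of 6 members in Sf3b1+/- cells, where 11.4% of all genes were, and 4 of 6 in wild-type cells, where 7.97% were. In both genotypes at once it was 4 of 6 members, against 4.57% of all genes. Because the members were chosen with earlier results of these data known, these counts are a description and not independent support. On the lower side the count was 0 of 6 members, against 7.06% of genes in Sf3b1+/- cells, 5.75% in wild-type cells and 2.45% in both. At least 2-fold higher were 3 of 6 members in each genotype, against 4.83% of genes in Sf3b1+/- and 2.84% in wild-type cells. With scaling on the RNA spike-ins the median over all compared genes lay higher in transplanted cells, by 0.83 in Sf3b1+/- and 0.45 in wild-type cells, so the values here are relative to the bulk of each array. At least 1.5-fold higher under that scaling were 6 of 6 members in Sf3b1+/- cells, against 73.7% of all genes, and 5 of 6 in wild-type cells, against 35.7%.

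An additive model over all 4 arrays tested the setting with limma and Benjamini-Hochberg adjustment over all 13045 genes. It has 1 residual degree of freedom per gene, which is the difference between the genotypes in their response. H2-Eb1 (log2 difference 1.88, SE 0.13, adjusted p = 0.0388) and H2-Aa (1.87, SE 0.14, adjusted p = 0.0392) rose in transplanted cells, each in both genotypes. They were 2 of 6 members, while the test called 0.437% of all genes higher and 0.153% lower. At an unadjusted p under 0.05 it was 5 of 6 members higher and 0 lower, against 13.5% and 12.2% of genes. Cd74 at 1.29 (SE 0.16, adjusted p = 0.0754) and H2-Ab1 at 0.96 (SE 0.12, adjusted p = 0.0759) did not pass the threshold in limma. H2-DMb1 at 0.34 (adjusted p = 0.193) and H2-DMa at 0.22 (adjusted p = 0.399) did not either. The calls depend on the processing: over 10 alternatives the adjusted p from limma spanned 6.66e-14 to 0.170 for H2-Eb1 and 9.55e-14 to 0.170 for H2-Aa, and from none to all 6 members were called. The difference itself lay between 1.69 and 2.50 for H2-Aa and between 1.81 and 2.52 for H2-Eb1.

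**Figure D2:**
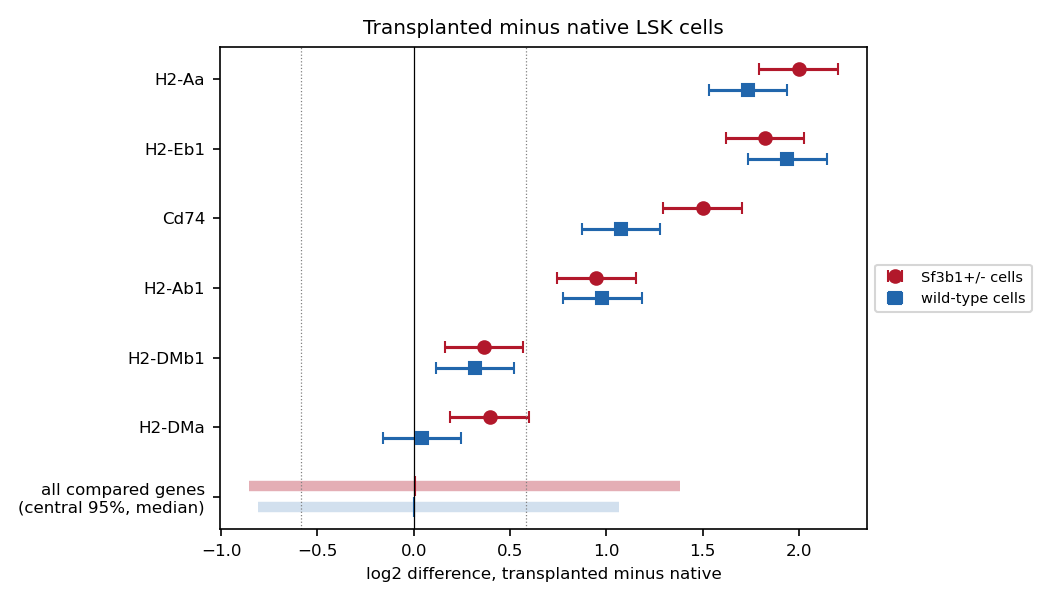
Log2 difference, transplanted minus native (x axis), of the 6 compared members in Sf3b1+/- cells (red circles) and wild-type cells (blue squares). Error bars are the scanner software's error of about 0.20, dotted lines mark 1.5-fold, and the bars at the bottom span the central 95% of all compared genes with their median. H2-Aa and H2-Eb1 lie between 1.73 and 1.997, and H2-DMb1 and H2-DMa between 0.04 and 0.39.

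The comparison of Sf3b1+/- with wild-type cells asks whether loss of 1 Sf3b1 copy moves these transcripts. No member was 1.5-fold apart between the genotypes in either setting, except that spike-in scaling put 3 of 6 past it in transplanted cells, along with 53.0% of all genes. In transplanted cells, where Sf3b1+/- exceeded wild type by 1.5-fold or more in 7.79% of genes and fell short of it by as much in 6.44%, the count was 0 of 6 in each direction, and the member median was 0.04 against 0.00 for all genes. In native cells, where 3.27% were higher and 4.71% lower, it was again 0 of 6 in each direction, with a member median of -0.13 against a median of 0.00 for all genes. Over both settings together 0 of 6 were, against 1.07% of genes higher and 1.55% lower. H2-DMa had the largest difference, with a scaled signal of 2.28 in Sf3b1+/- and 1.78 in wild-type transplanted cells, or 1.28-fold higher. H2-Ab1 lay at 14.5 in Sf3b1+/- against 17.5 in wild-type transplanted cells, and at 7.52 in Sf3b1+/- against 8.88 in wild-type native cells. These are log2 differences of -0.27 and -0.24, and the other H2-Ab1 probe gave -0.27 and -0.18.

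H2-Eb1 was lower in Sf3b1+/- cells by little in both settings as well (-0.23 in transplanted and -0.12 in native cells), and so was H2-DMb1 (-0.10 and -0.14). With spike-in scaling, which moved the median of all genes by 0.62 in transplanted and 0.23 in native cells, these values were 0.38 and 0.11 for H2-Eb1 and 0.51 and 0.09 for H2-DMb1, and those of H2-Ab1 were 0.34 and -0.01. The 3 past 1.5-fold in transplanted cells under that scaling were H2-DMa (0.97, and 0.24 in native cells), H2-Aa (0.83 and 0.19) and Cd74 (0.78 and -0.02). H2-Aa stood at 0.22 in transplanted and -0.04 in native cells, and Cd74 at 0.17 and -0.25. Most of these differences are within or near the scanner error of about 0.20.

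In the additive limma fit the genotype called 0 of 6 members and 0% of all 13045 genes in either direction. At an unadjusted p under 0.05, 6.23% of genes were higher and 7.34% lower in Sf3b1+/- and 0 of 6 members were. The adjusted p over members ran between 0.402 for H2-Ab1 (log2 difference -0.26, SE 0.12) and 0.902 for Cd74 (-0.04, SE 0.16). With 1 residual degree of freedom this does not show that the members are equal between the genotypes.

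**Figure D3:**
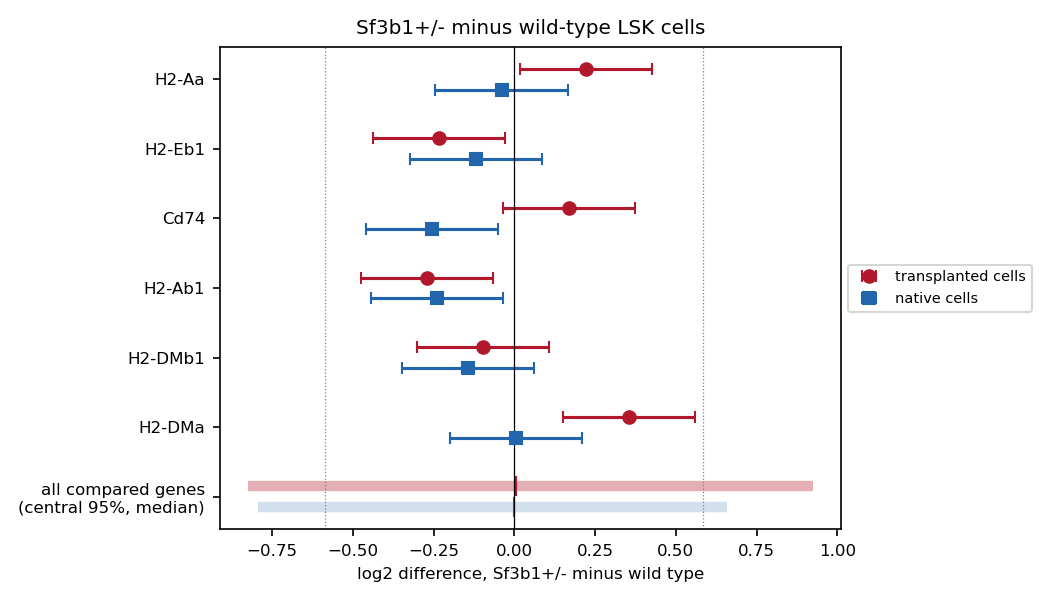
Log2 difference, Sf3b1+/- minus wild type (x axis), of the 6 compared members in transplanted cells (red circles) and native cells (blue squares), with scanner errors, 1.5-fold lines and the central 95% of all compared genes as bars at the bottom. All 12 points lie between -0.27 and 0.36, inside the 1.5-fold lines.

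To place the members among other transcripts, their mean pattern over the 4 arrays was compared with that of 12175 other genes well above background on all of them. The 5 genes at the smallest Euclidean distance were Chkb (0.04 on the log2 scale), Olfm1 (0.09), Nckap5l (0.09), Skap1 (0.09) and Alkbh1 (0.09). Their differences between transplanted and native cells were 1.11 to 1.22 in Sf3b1+/- and 0.95 to 1.13 in wild-type cells. Cd74 (0.24) and H2-Ab1 (0.26) were the members nearest to their own mean, and H2-DMa (0.91) and H2-Eb1 (0.81) the furthest, on opposite sides of it in size. A distance over 4 arrays is a description and many genes with a like difference lie near it.

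The genes that make class II expression and loading possible did not move as one group. Of 7 genes of the promoter complex, which encode RFX, NF-Y and CREB proteins, 0 differed 1.5-fold one way in both genotypes and limma called 0 by the setting. Their median was -0.14 in Sf3b1+/- and 0.03 in wild-type cells. By the mean of both genotypes the lowest was Rfxap at -0.88 in Sf3b1+/- and 0.19 in wild-type cells, and the highest Rfxank at 0.50 and 0.25, and both encode RFX subunits. Of 6 proteases and cofactors of class II loading, 2 were at least 1.5-fold higher in transplanted cells of both genotypes and 0 lower, and limma called 0. Ifi30, a reductase that opens disulfide bonds of antigens in the endosome, stood at 1.68 in Sf3b1+/- and 1.13 in wild-type cells (adjusted p = 0.077, limma). Lgmn, an asparaginyl endopeptidase of the endosome, stood at 0.89 and 0.73 (adjusted p = 0.093, limma), and Ctsd, the lowest by the mean of both genotypes, at 0.27 and 0.01.

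Interferon gamma is the best known inducer of Ciita. Of 10 genes listed for its pathway, 2 stood 1.5-fold or more above and 2 as far below in transplanted cells of both genotypes, and limma called 0. The list takes in the IRF genes Irf1, Irf2, Irf4 and Irf8, and whether each answers to interferon gamma in these cells was not tested. The list median was -0.23 in Sf3b1+/- and -0.13 in wild-type cells. Irf8, a transcription factor of monocyte and dendritic cell development, had a scaled signal of 7.12 in Sf3b1+/- and 7.80 in wild-type transplanted cells, against 2.95 in Sf3b1+/- and 3.48 in wild-type native cells. The difference was 1.27 and 1.17 (adjusted p = 0.059, limma). Ifng itself was dim, with 0.0544 and 0.103 in Sf3b1+/- and wild-type transplanted against 0.0245 and 0.0347 in Sf3b1+/- and wild-type native cells, or 1.15 and 1.57 (adjusted p = 0.070, limma). Irf2 (-0.79 and -0.71) and Irf4 (-0.72 and -1.31) were the lower ones. Between genotypes Irf4 was at least 1.5-fold lower in Sf3b1+/- in both settings (-0.62 in transplanted and -1.21 in native cells), and limma did not call it.

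The class I pathway, which shows peptides from the cytosol, gave 0 of 13 genes 1.5-fold apart in both genotypes and 0 called by limma. Its median was 0.22 in Sf3b1+/- and 0.06 in wild-type cells, with Tap1, a subunit of the peptide transporter, highest by the mean of both at 0.63 and 0.20 and Erap1, a peptide-trimming enzyme, lowest at -0.52 in both. Marchf1 and Marchf8, ubiquitin ligases that remove class II from the surface, stood at -0.47 and -0.37 in Sf3b1+/- and at -0.24 and -0.55 in wild-type cells. Of the costimulatory genes, 3 of 4 were compared, 0 were 1.5-fold apart in both genotypes by the setting, and Cd40 was not well above background on any array. Between genotypes Cd83, whose protein is known to keep class II on the surface, was the 1 listed costimulatory gene at least 1.5-fold lower in Sf3b1+/- in both settings (-1.42 in transplanted and -1.05 in native cells, adjusted p = 0.310, limma).

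**Figure D4:**
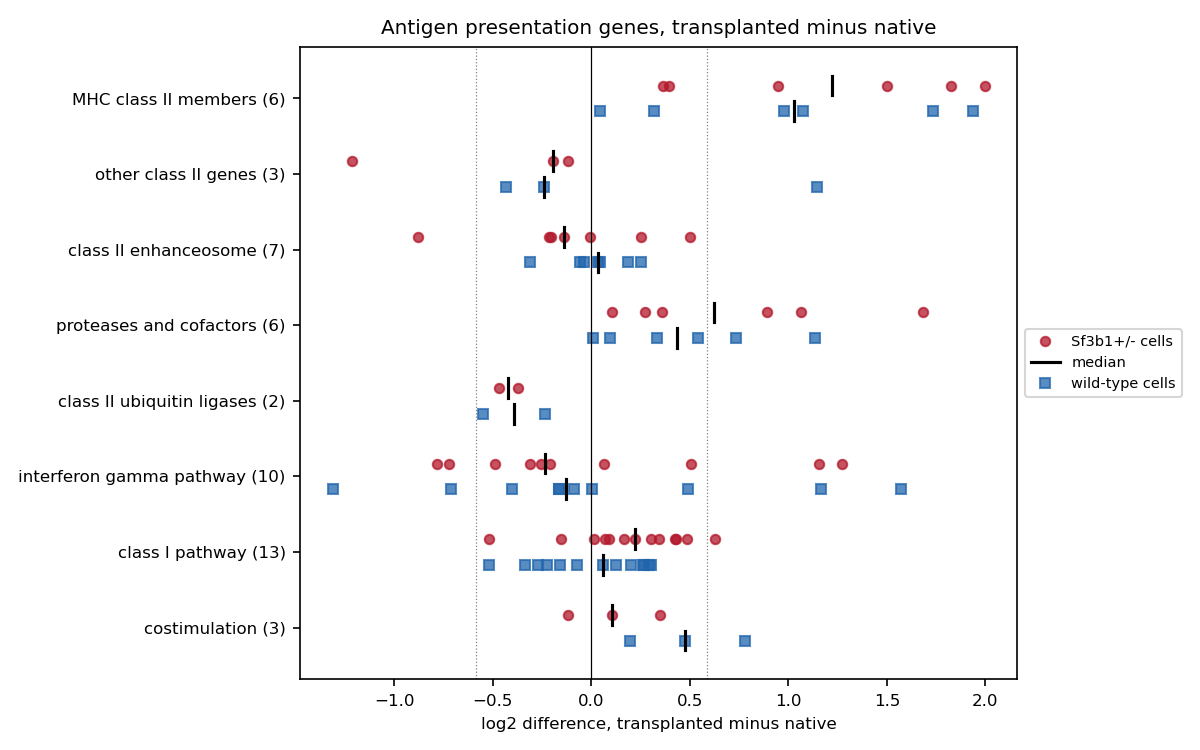
Log2 difference, transplanted minus native (x axis), of each compared gene in 8 lists of antigen presentation genes, in Sf3b1+/- cells (red circles) and wild-type cells (blue squares), with black ticks at list medians, dotted lines at 1.5-fold and the number of genes in brackets. The class II members have medians of 1.22 and 1.03, and the 13 class I genes 0.22 and 0.06.

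Among the other class II genes 3 of 4 were well above background, and 0 of 3 differed 1.5-fold one way in both genotypes. H2-Oa and H2-Ob, which encode the chains of an inhibitor of the DM dimer, stood lower rather than higher in transplanted cells. H2-Oa had a scaled signal of 0.731 in Sf3b1+/- and 0.793 in wild-type transplanted cells, against 0.838 and 0.936 in Sf3b1+/- and wild-type native cells (-0.20 and -0.24, adjusted p = 0.324, limma). H2-Ob had 0.440 in Sf3b1+/- and 0.817 in wild-type transplanted cells, against 1.02 and 1.102 in Sf3b1+/- and wild-type native cells (-1.22 and -0.43, adjusted p = 0.147, limma), and its other probe gave -0.38 and -0.13. H2-Eb2 was close to background at 0.018 and 0.027 in Sf3b1+/- and wild-type transplanted cells, against 0.019 and 0.012 in Sf3b1+/- and wild-type native cells.

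Of the 7 members, 5 lie on chromosome 17, Cd74 on 18 and Ciita on 16. The mouse class II region from H2-Oa to H2-Ea holds 16 RefSeq genes, of which the 14 on the lists used here are named. In RefSeq order these run H2-Oa, H2-DMa, H2-DMb2, H2-DMb1 and the class I processing genes Psmb9, Tap1, Psmb8 and Tap2. Then come H2-Ob, H2-Ab1, H2-Aa, H2-Eb1, H2-Eb2 and H2-Ea. Of 16 RefSeq genes in that stretch 13 were compared, and 3 were at least 1.5-fold higher in transplanted cells of both genotypes, against 4.57% of all genes. All 3 are members and direct neighbours in this order, H2-Ab1, H2-Aa and H2-Eb1. Since the members were chosen with earlier results known, this is a description. None of the 13 was at least 1.5-fold lower in both genotypes, against 2.45% of all genes. On 1 side their next neighbour H2-Ob, whose promoter held the same pair of cores, was on the lower side. On the other side H2-Eb2, close to background, stood at -0.12 in Sf3b1+/- and 1.15 in wild-type cells.

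Markers of other cells were read beside the members, since the sorted fraction could hold other class II producers and in bulk RNA more cells of a kind and more RNA per cell cannot be told apart. Of 5 B lineage markers well above background on all 4 arrays, 3 were at least 1.5-fold lower in transplanted cells of both genotypes, 0 were higher, and limma called 1 lower, Igll1. Ebf1, a B cell transcription factor, was well above background in native cells alone. By the mean of both genotypes it was at least 8.83-fold lower in transplanted cells. It is not counted because it was compared through the group where it is high. Igll1, a surrogate light chain, stood at -3.66 in Sf3b1+/- and -4.80 in wild-type cells (adjusted p = 0.039, limma), Vpreb1, its partner, at -1.86 and -3.41, and the adaptor gene Blnk at -1.29 and -1.34. Cd79b, a B cell receptor gene, differed less, at -0.03 in Sf3b1+/- and -0.43 in wild-type cells, and so did Cd22, at -0.46 and -0.20. The summed scaled signal of the 7 compared genes of the list was 2.83 in Sf3b1+/- and 3.71 in wild-type transplanted cells, against 4.57 in Sf3b1+/- and 11.2 in wild-type native cells. Most of the sum in transplanted cells was Cd79b, while in wild-type native cells Vpreb1 was the largest part, at 4.96. Ebf1 and Cd79a, also in the sum, were not well above background on every array. The B cell genes Pax5 and Blk were not well above background on any array. By genotype the median of the same 5 markers for Sf3b1+/- minus wild type was -0.61 in transplanted and -1.19 in native cells, 3 of 5 were at least 1.5-fold lower in both settings (Blnk, Vpreb1 and Igll1), and limma called 0.

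Of 6 dendritic cell markers well above background on all 4 arrays, 2 were at least 1.5-fold higher in transplanted cells of both genotypes, 0 were lower, and limma called 0. Batf3, a transcription factor of cross-presenting dendritic cells, stood at 2.91 in Sf3b1+/- and 1.93 in wild-type cells (adjusted p = 0.068, limma), and Itgax, which encodes CD11c, at 0.80 and 1.45. The plasmacytoid marker Siglech stood at -0.22 and 0.16, Tcf4, a transcription factor of the same cells, at 0.00 in both, and Ccr9, a chemokine receptor gene, at -0.78 and 0.50. Clec9a, a receptor of cross-presenting dendritic cells, and Cd209a, a lectin of monocyte-derived dendritic cells, were well above background in transplanted cells alone. By the mean of both genotypes they were at least 12.0-fold and 3.54-fold higher there. They are not counted because they were compared through the group where they are high. Xcr1 was not well above background on any array. The summed scaled signal of the 8 compared genes of the list, carried mostly by Siglech, was 47.7 in Sf3b1+/- and 70.7 in wild-type transplanted cells, against 54.6 and 61.9 in Sf3b1+/- and wild-type native cells.

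Of 5 monocyte and macrophage markers well above background on all 4 arrays, 4 were at least 1.5-fold higher in transplanted cells of both genotypes, 0 were lower and limma called 0. They were Cd14, a lipopolysaccharide co-receptor (2.24 in Sf3b1+/- and 1.02 in wild-type cells), Lyz2, which encodes lysozyme (1.86 and 0.82), and the chemokine receptor genes Cx3cr1 (1.25 and 1.15) and Ccr2 (1.19 and 1.48). The 7 compared genes of the list summed to 5.43 in Sf3b1+/- and 5.85 in wild-type transplanted cells, against 2.89 in Sf3b1+/- and 3.97 in wild-type native cells. Most of that was Csf1r, which was not 1.5-fold higher in both genotypes (0.66 in Sf3b1+/- and 0.41 in wild-type cells). Adgre1 and Fcgr1, also in the sum, were not well above background on every array. The part of dendritic cell and monocyte transcripts in the higher class II signal was not tested.

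Among the stem and progenitor markers Slamf1, which encodes CD150, stood at 2.56 in Sf3b1+/- and 1.31 in wild-type cells, and Flt3, a receptor of lymphoid-primed progenitors, at -1.20 and -0.61, with 0 of 7 called by limma. Among T and NK cell markers Klrb1c, an NK cell receptor gene, stood at 3.46 and 1.77 (adjusted p = 0.1003, limma), the 1 of 5 compared that was at least 1.5-fold higher in both genotypes, and Cd4 was lowest by the mean of both genotypes, at -0.27 in Sf3b1+/- and 0.08 in wild-type cells. Of 3 granulocyte markers and 1 erythroid marker, 0 were 1.5-fold apart in both genotypes.

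**Figure D5:**
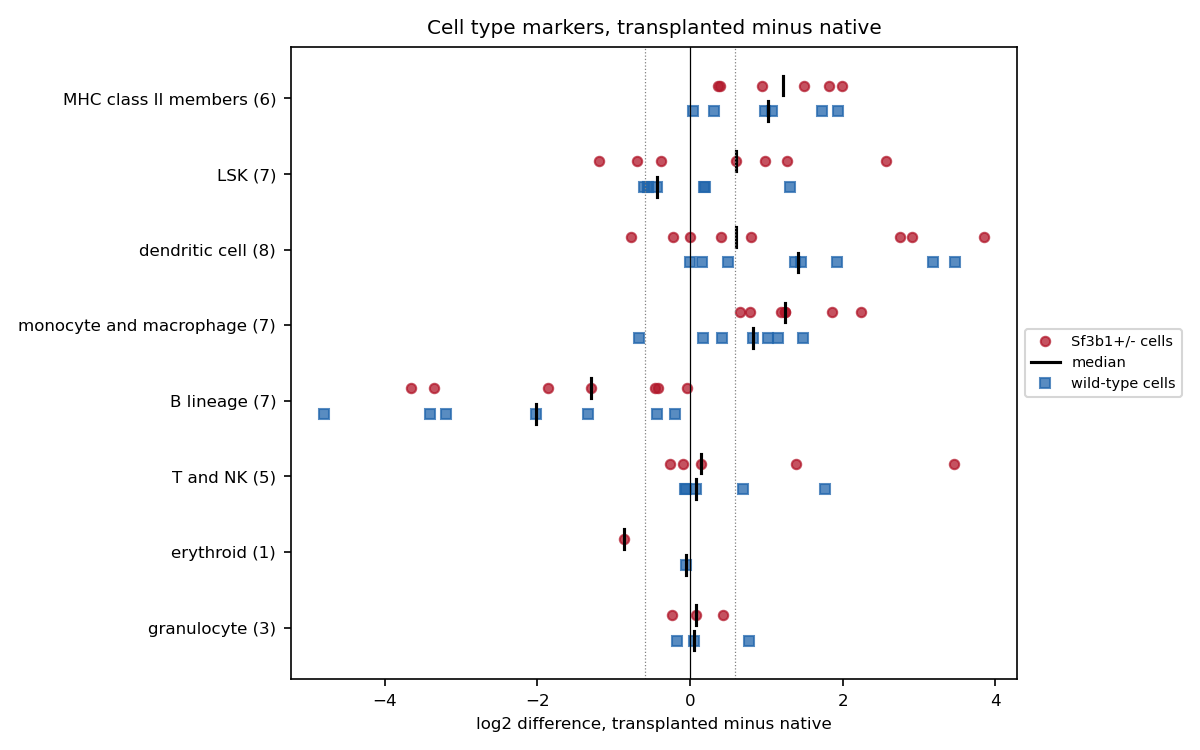
Log2 difference, transplanted minus native (x axis), of the class II members and of each compared cell type marker, in Sf3b1+/- cells (red circles) and wild-type cells (blue squares), with black ticks at list medians and the number of genes in brackets. The points include genes below background in 1 setting, drawn at their measured values and not as bounds, such as Clec9a at 3.86 in Sf3b1+/- cells. Igll1, well above background on all 4 arrays, lies at -4.80 in wild-type cells.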

How the data were processed

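The members and gene lists were chosen with earlier results of these data known. Per the file headers, the arrays (Agilent design 028005) were read with Feature Extraction 10.7.1.1, and the deposited scanner files hold spot intensity after the software's background subtraction and detrending, not scaled across arrays. In the authors' series table each deposited ratio is a processed signal over 1 constant per array, as read from the values, with a correlation of 1.00 to the log2 processed signal on every array.

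Here log2 processed signal was shifted by each array's 75th percentile over probes well above background on all 4 arrays, because on average 49.5% of spots were detected, short of the 50% set for using all probes. Outlier spots were left out, spots of a probe averaged, and the brightest probe stood for a gene. Probes were named through RefSeq transcripts (27509 of 55681 matched). Genes well above background on at least 2 arrays were compared. limma 3.58.1 in R 4.3.3 fitted genotype and setting additively (two-sided, Benjamini-Hochberg 0.05, prior of 3.05 degrees of freedom). The code was run on simulated data with additive effects and variances drawn from the same fitted prior. Such data match the model, so the run cannot show that the model holds for these arrays. The p-values rest on the difference between the genotypes in their response and on the shared prior, not on replicate arrays. That difference may be technical. Having 1 array per group limits the precision. A bound (at least N-fold) is for the mean of both genotypes, not for each. It sets the bright arrays against the higher of the dim probe's own signal and the lowest signal well above background. The rule for named genes took all 7 members and, of each list, genes 1.5-fold apart in both genotypes or settings, the lowest and the highest. For the costimulatory, granulocyte and erythroid lists the lowest and the highest by the setting are not given. Genotype differences of genes not well above background on all 4 arrays, such as Cd3d and Clec9a, are not given. Others (Kit, Ly6a, Cd34, Siglech, Cd22, and genes below background) were named after their values were seen. The files hold a median but no mean spot signal, so the normexp alternative used the median. Scaling, background, filter, probe choice and moderation were varied. An item of the B lineage list is not reported here and was left out of that list's counts, medians and sums.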

Additional observations from a re-analysis of the deposited data

Results flagged for a closer look

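With 1 array per group, 3 class II genes, out of 6 members and 3 other class II genes compared, had a genotype difference of opposite sign in the 2 settings. How many of all compared genes have opposite signs was not counted, and none of these contrasts was tested. For Cd74 the log2 difference Sf3b1+/- minus wild type was 0.17 in transplanted and -0.25 in native cells, 0.42 apart. For H2-Aa it was 0.22 in transplanted and -0.04 in native cells, 0.26 apart, and with spike-in scaling both were positive (0.83 and 0.19). For H2-Eb2, which is close to background, it was -0.62 in transplanted and 0.65 in native cells, a contrast of -1.27. The same contrast means that H2-Eb2 was 1.15 higher in transplanted than native wild-type cells and stood at -0.12 in Sf3b1+/- cells.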

How the results depend on the processing

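No paired analysis was possible because each group holds 1 array, and no array could be left out of a group. Under the 6 alternatives that change every member's difference, no difference of 1.5-fold or more changed sign. All 24 single-gene differences moved by more than the spread between replicate spots with spike-in scaling, as did 1 with normexp (H2-Aa, wild type, at 1.56). The background filters cannot change a single-gene difference, and averaging probes changes H2-Ab1 alone. Spike-in scaling gave member medians of 2.05 (Sf3b1+/-) and 1.47 (wild type) for transplanted minus native, and 0.65 (transplanted) and 0.10 (native) for Sf3b1+/- minus wild type. With no background filter, which adds Ciita, the Sf3b1+/- transplanted minus native median was 0.95. Members called by the setting in limma, 2 in the main setting, numbered 0 with quantile normalization, cyclic loess, the deposited series table, no filter or the mean of all probes, 1 with the percentile over all probes, 4 with normexp or with genes well above background on all 4 arrays, 5 with an intensity trend and 6 with spike-in scaling. Over all genes limma called 77 by setting in the main setting, against 0 with quantile, cyclic loess, the series table or no filter, 7 with probe means, 309 with the filter on all 4 arrays, 1319 with normexp, 2249 with the trend and 5512 with spike-ins, and by genotype 0 against 103 with the trend and 529 with spike-ins. Among genes 1.5-fold apart, the share higher in transplanted wild-type cells was 58.1%, against 46.6% (percentile over all probes), 47.9% (quantile), 47.7% (cyclic loess), 48.9% (normexp), 46.9% (series table) and 95.9% (spike-ins). In Sf3b1+/- cells it was 61.7%, against 99.0% with spike-ins. The share higher in Sf3b1+/- was 54.7% in transplanted cells, against 66.0% (quantile), 70.2% (cyclic loess), 69.3% (normexp) and 98.6% (spike-ins), and 41.0% in native cells, against 25.7% (normexp) and 78.1% (spike-ins). The cause was not tested.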
